A study of Mus musculus with 4 samples.

Results

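Cell cycle and DNA replication genes were examined in whole inguinal mammary gland of mouse pups at postnatal day 10. The list held 38 genes chosen by name for their roles in the cycle, and 37 of them were measured among 17097 genes, each by its brightest probe set with a single gene symbol. Ccnb1, a mitotic cyclin, was the member not analysed here. By role the measured members were 18 genes of G2 and mitosis, 13 genes of S phase and replication, and 6 D cyclins and Cip/Kip inhibitors. The 2 groups were mice lacking Mt2-mmp, labelled Mt2-mmp(-/-), with 2 arrays, and wild-type littermates, labelled Mt2-mmp(+/+), with 2 arrays. All mice were congenic on C57Bl/6J. Mt2-mmp, gene symbol Mmp15, encodes a membrane-anchored matrix metalloproteinase. For each array 200 ng of total RNA was amplified and labelled with biotin. The labels call the arrays biological replicates, and they do not state the number of mice per array, their sex or the extent of the deletion. The targeted gene was not analysed here, so it gave no check of the genotype labels.

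Cells enter the cycle when D cyclins with their kinases, and then cyclin E with its kinase, release E2F factors from the retinoblastoma proteins. E2F targets supply the licensing complex, the replication fork and the nucleotides of S phase. A later wave of genes, switched on in G2 by B-Myb, FOXM1 and the DREAM-related complex, builds the spindle, the kinetochore and the cleavage furrow. The Cip/Kip proteins hold cyclin-dependent kinases in check and are abundant in resting or differentiating cells. In the young gland, growth of the epithelial tree and of the fat pad both rest on cell division.

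Values are RMA log2 expression values as deposited, so a step of 1 is a doubling. The median over all genes was 6.48 to 6.50 by array. Every member was brighter than the nonspecific controls, whose medians were 3.26 to 3.28. Correlations between arrays over all genes were 0.994 to 0.997. Hair follicle genes set the arrays apart irrespective of genotype: the mean log2 value of 13 hair follicle markers was 7.78 in knockout 1 and 4.42 in knockout 2, against 4.43 in wild type 1 and 7.62 in wild type 2. In whole tissue, fewer cells of a type and less RNA per cell cannot be told apart.

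Among the cell cycle roles, genes of G2 and mitosis had the largest differences between the wild-type arrays, and the knockouts lay between them. In all 18 measured mitotic genes wild type 1 was the highest of the 4 arrays and wild type 2 the lowest, an order found in 7.39% of all genes. Mki67, the nuclear protein used as a proliferation marker, had log2 values of 9.12 and 9.28 in the knockouts, against 9.71 and 8.81 in wild type 1 and wild type 2. The kinase gene Cdk1, whose product drives entry into mitosis, had 9.01 and 9.01 in the knockouts, against 9.52 and 8.58 in the wild types. Its 2 knockout values were nearly equal and both fell inside the wild-type gap. The cyclin genes Ccna2 and Ccnb2, partners of that kinase, followed the same order. Ccna2 had 8.65 and 8.76 in the knockouts, against 9.29 and 8.29 in the wild types. For Ccnb2 the values were 7.78 and 8.05 in the knockouts, against 8.46 and 7.50 in the wild types.

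Bub1, a checkpoint kinase at the kinetochore, had log2 values of 6.54 and 6.73 in the knockouts, against 7.45 and 5.92 in the wild types. Its difference of 1.53 between wild type 1 and wild type 2, a 2.89-fold step, was the largest of any member and ranked 2 among all 17097 genes. Tpx2, which nucleates spindle microtubules and activates Aurora A, had 6.85 and 7.12 in the knockouts, against 7.53 and 6.25 in the wild types. Kif20a, a kinesin of cytokinesis, had 6.38 and 6.67 in the knockouts, against 7.12 and 5.94 in the wild types. In each of these genes both knockouts lay well inside the wild-type values. Aurka, the spindle-pole kinase, had 6.09 and 5.96 in the knockouts, against 6.53 and 5.39 in the wild types. Aurkb, the kinase of the chromosomal passenger complex, had 6.33 and 6.31 in the knockouts, against 6.97 and 5.81 in the wild types. Plk1, a kinase of centrosome maturation and mitotic exit, had 6.23 and 6.56 in the knockouts, against 6.97 and 5.87 in the wild types. The smallest gap among mitotic genes belonged to Nusap1, a spindle microtubule binding protein, at 6.99 and 7.07 in the knockouts, against 7.69 and 6.90 in the wild types. Here both knockouts sat close to wild type 2. The other 7 mitotic genes had wild-type differences between 0.85 and 1.10.

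Of these, Cenpe, a kinetochore motor, had log2 values of 6.66 and 6.91 in the knockouts, against 7.31 and 6.21 in the wild types. Cenpf, a kinetochore protein, had 7.02 and 6.98 in the knockouts, against 7.50 and 6.54 in the wild types. Bub1b, which holds back anaphase as part of the checkpoint, had 6.98 and 7.23 in the knockouts, against 7.73 and 6.78 in the wild types. At the kinetochore, then, the knockouts were again the middle arrays. Cdc20, the activator of the anaphase-promoting complex, had 7.69 and 7.78 in the knockouts, against 8.23 and 7.38 in the wild types. Birc5, a chromosomal passenger subunit, had 8.33 and 8.38 in the knockouts, against 8.93 and 8.0 in the wild types. Top2a, which untangles sister chromatids, had 8.72 and 8.68 in the knockouts, against 9.28 and 8.37 in the wild types. In these brighter genes the order was unchanged. Kif11, the motor that separates the spindle poles, had 5.87 and 5.93 in the knockouts, against 6.38 and 5.53 in the wild types.

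**Figure D1:**
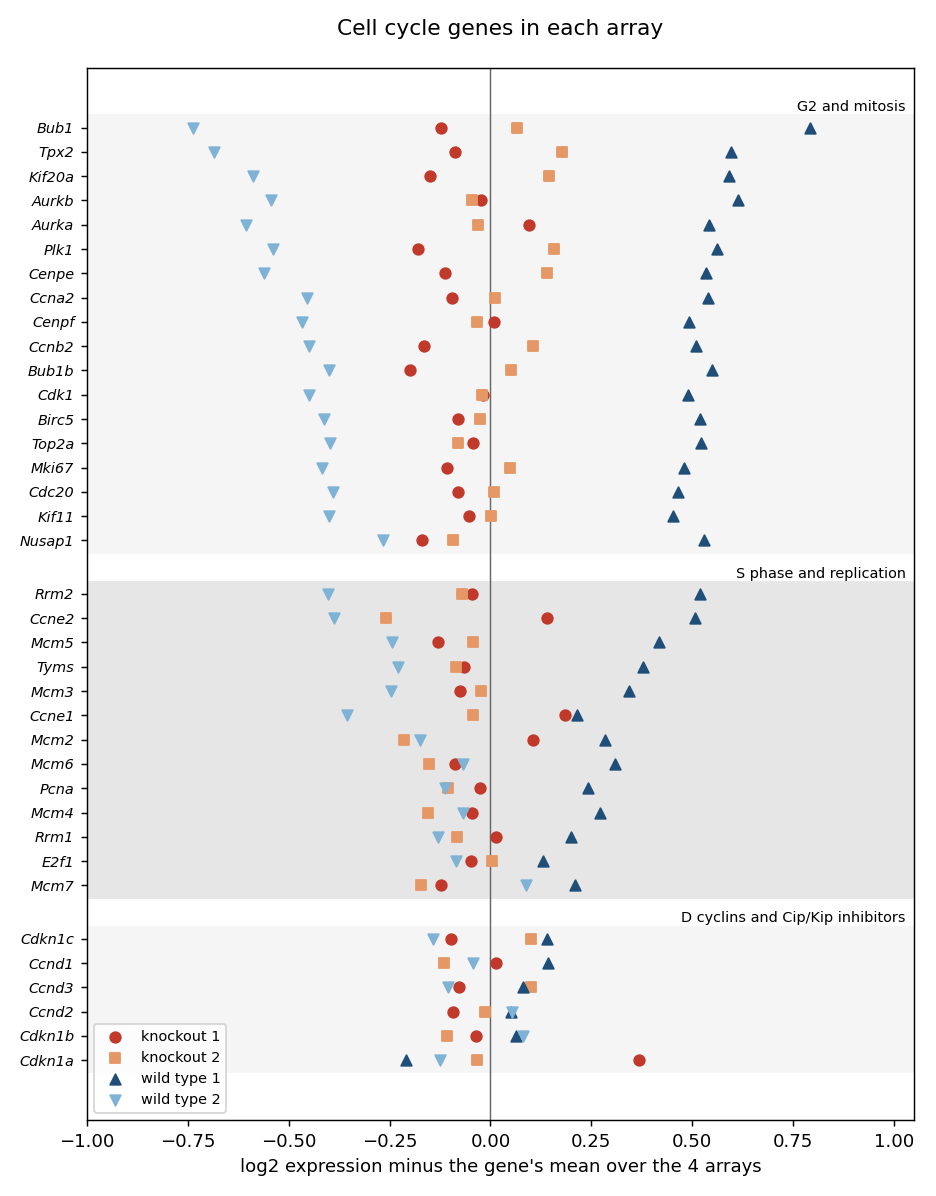
Each row is 1 cell cycle gene and each symbol 1 array, placed by its log2 expression minus the mean of the 4 arrays, with genes grouped by role and ordered by the wild-type difference. In all 18 mitotic genes and all 13 replication genes wild type 1 is the rightmost symbol, while the D cyclins and Cip/Kip inhibitors share no order.

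All 6 pairs of arrays were compared, with no test because each side is 1 array. Between wild type 1 and wild type 2 the mitotic genes differed by 0.79 to 1.53, with a median of 0.96, and 18 of 18 were at least 0.5 higher in wild type 1, against 1.22% of all genes. Between knockout 1 and wild type 1, 16 of 18 were at least 0.5 lower in the knockout (median -0.63), against 1.14% of all genes. For knockout 2 and wild type 1 this was 9 of 18 (median -0.51), against 0.76% of all genes. Set against wild type 2, the knockouts lay higher instead: 4 of 18 were at least 0.5 higher in knockout 1 (median 0.36), against 1.4% of all genes, and 7 of 18 in knockout 2 (median 0.47), against 1.32% of all genes. Between the knockouts no mitotic gene differed by 0.5 in either direction (median of knockout 1 minus knockout 2 -0.10), where 1.12% of all genes were that much higher and 0.521% that much lower in knockout 1. No mitotic gene lay 0.5 or more below wild type 2 in either knockout or in wild type 1, where 1.46%, 1.63% and 1.2% of all genes lay that far below in knockout 1, knockout 2 and wild type 1. The wild-type gap was wider than the knockout gap in 18 of 18 mitotic genes and in 49.7% of all genes.

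Genes of S phase and replication shared the high value of wild type 1 but with smaller steps. In all 13 wild type 1 was the highest array, which held for 21.5% of all genes, and in 9 of them wild type 2 was the lowest. In the other 4, Mcm2, Mcm4, Mcm6 and Mcm7, knockout 2 was the lowest. The Mcm2 to Mcm7 proteins form the hexameric replicative helicase. Mcm5 had log2 values of 7.03 and 7.11 in the knockouts, against 7.58 and 6.91 in the wild types. Mcm6 had 9.15 and 9.09 in the knockouts, against 9.55 and 9.17 in the wild types, and Mcm7 had 8.52 and 8.47 in the knockouts, against 8.85 and 8.73 in the wild types. Mcm6 and Mcm7 were the replication members whose knockout arrays both lay below both wild types. Mcm2 had 7.77 and 7.45 in the knockouts, against 7.95 and 7.49 in the wild types, so knockout 1 stood nearer wild type 1 and knockout 2 nearer wild type 2. A second Mcm2 probe set had 7.42 and 7.33 in the knockouts, against 7.90 and 7.25 in the wild types. There both knockouts stood nearer wild type 2, which was the lowest array. Mcm3 had 6.21 and 6.26 in the knockouts, against 6.63 and 6.04 in the wild types. Mcm4 had 8.73 and 8.62 in the knockouts, against 9.05 and 8.71 in the wild types. Wild type 1 was the highest array in each of the helicase genes.

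Among the genes of nucleotide supply, Rrm2, the regulated subunit of ribonucleotide reductase, had 8.45 and 8.42 in the knockouts, against 9.01 and 8.09 in the wild types. Its partner Rrm1 differed less, with 8.63 and 8.54 in the knockouts, against 8.82 and 8.49 in the wild types. Tyms, which makes thymidylate, had 8.07 and 8.05 in the knockouts, against 8.51 and 7.90 in the wild types. In each of the nucleotide genes the knockout arrays were close to each other and inside the wild-type range. Pcna, the sliding clamp of the polymerases, had 10.92 and 10.84 in the knockouts, against 11.19 and 10.84 in the wild types, so 3 of its 4 arrays lay within 0.09 of each other. The E cyclins differed more. Ccne2 had 6.66 and 6.26 in the knockouts, against 7.03 and 6.13 in the wild types, and Ccne1 had 6.09 and 5.87 in the knockouts, against 6.12 and 5.55 in the wild types. E2f1, the transcription factor of the G1 to S step, spanned only 0.21, with 6.57 and 6.62 in the knockouts, against 6.75 and 6.53 in the wild types. Over the 13 genes the difference between wild type 1 and wild type 2 ran from 0.12 for Mcm7 to 0.92 for Rrm2, with a median of 0.46, and 6 of 13 reached 0.5.

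The D cyclins and Cip/Kip inhibitors did not share that order. Ccnd1, encoding cyclin D1, had log2 values of 9.91 and 9.78 in the knockouts, against 10.04 and 9.85 in the wild types. Ccnd2 had 10.82 and 10.90 in the knockouts, against 10.96 and 10.97 in the wild types, and Ccnd3 had 9.30 and 9.48 in the knockouts, against 9.46 and 9.27 in the wild types. The wild-type arrays overlapped the knockouts for Ccnd1 and Ccnd3, while for Ccnd2 both knockouts lay lower at this probe set. The next brightest of its 6 probe sets overlapped, with 10.58 and 10.74 in the knockouts, against 10.69 and 10.70 in the wild types. A dimmer one kept the knockouts lower, with 9.73 and 9.75 in the knockouts, against 9.77 and 9.83 in the wild types. Cdkn1a, which encodes the p53 target p21, had 8.17 and 7.77 in the knockouts, against 7.60 and 7.68 in the wild types. Both knockouts were above both wild types, with knockout 1 standing furthest out. Cdkn1b, encoding p27, had 9.95 and 9.88 in the knockouts, against 10.05 and 10.07 in the wild types, so both knockouts were lower. Cdkn1c, encoding p57, had 9.81 and 10.01 in the knockouts, against 10.05 and 9.77 in the wild types, with overlap. Over these 6 genes the median wild-type difference was 0.09, and 0 of 6 reached 0.5.

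Replication and mitotic genes differed in how the arrays were spaced. Relative to each gene's mean over the 4 arrays, the median deviation of the mitotic genes was -0.09 in knockout 1 and 0.01 in knockout 2, against 0.53 in wild type 1 and -0.45 in wild type 2. For the replication genes it was -0.05 in knockout 1 and -0.09 in knockout 2, against 0.28 in wild type 1 and -0.17 in wild type 2. The mitotic genes thus spread to both sides of the knockouts, whereas the replication genes had 1 high array and 3 closer ones. The replication median minus the mitotic median was 0.04 in knockout 1 and -0.10 in knockout 2, against -0.25 in wild type 1 and 0.28 in wild type 2. Within the knockouts the roles leaned apart slightly: 10 of 13 replication genes were higher in knockout 1 than in knockout 2, but 5 of 18 mitotic genes were, where 47.6% of all genes were higher in knockout 1.

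By genotype, no cell cycle gene passed the test. In limma 0 of 37 members had a Benjamini-Hochberg adjusted p under 0.05, against 0.00585% of all genes, and 1 of 37 had an unadjusted p under 0.05, against 7.01% of all genes. That member was Mcm7, with a log2 fold change of -0.30 (SE 0.075, 95% interval -0.49 to -0.10, n = 2 arrays each, limma adjusted p = 0.693). Mcm7 averaged 8.49 ± 0.035 on the log2 scale in knockouts, against 8.79 ± 0.087 in wild types (SD, n = 2 arrays each). A second probe set of Mcm7 had a log2 fold change of -0.24. Cdkn1a had the highest log2 fold change of the members, 0.33 (SE 0.144, 95% interval -0.04 to 0.71, limma adjusted p = 0.729), and a second probe set of it had 0.30. For Cdkn1b it was -0.15 (SE 0.067, limma adjusted p = 0.738), while its dimmer probe set, at 4.03 to 4.39 in all arrays, had 0.14. An exact permutation test of 2 arrays against 2 cannot go below p = 0.33.

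The mitotic genes had a median log2 fold change of -0.06, with 15 of 18 below 0, and their fold changes ran from -0.26 for Nusap1 to 0.09 for Tpx2. The replication genes had a median of -0.12, with 12 of 13 below 0 and Ccne1 at 0.14. D cyclins and inhibitors had a median of -0.05, with 3 of 6 below 0. Over all genes the median was -0.002 and 51.0% lay below 0. The wide gap between the wild types left wide intervals: for Bub1 the log2 fold change was -0.06 with a 95% interval of -1.33 to 1.22, and in 18 of 18 mitotic genes the interval reached past 0.5 in at least 1 direction. The size of any genotype difference in these genes was therefore poorly bounded. Which wild-type array was used set its sign. Without wild type 2 the mitotic median was -0.56, with 18 of 18 genes below 0, and without wild type 1 it was 0.43, with 18 of 18 above 0. The replication median was -0.37 without wild type 2 and 0.12 without wild type 1. Leaving out a knockout gave mitotic medians of -0.03 without knockout 1 and -0.13 without knockout 2. Of the 37 members, 4 had both knockouts below both wild types, against 19.4% of all genes, and 1 had both above, against 18.2% of all genes.

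**Figure D2:**
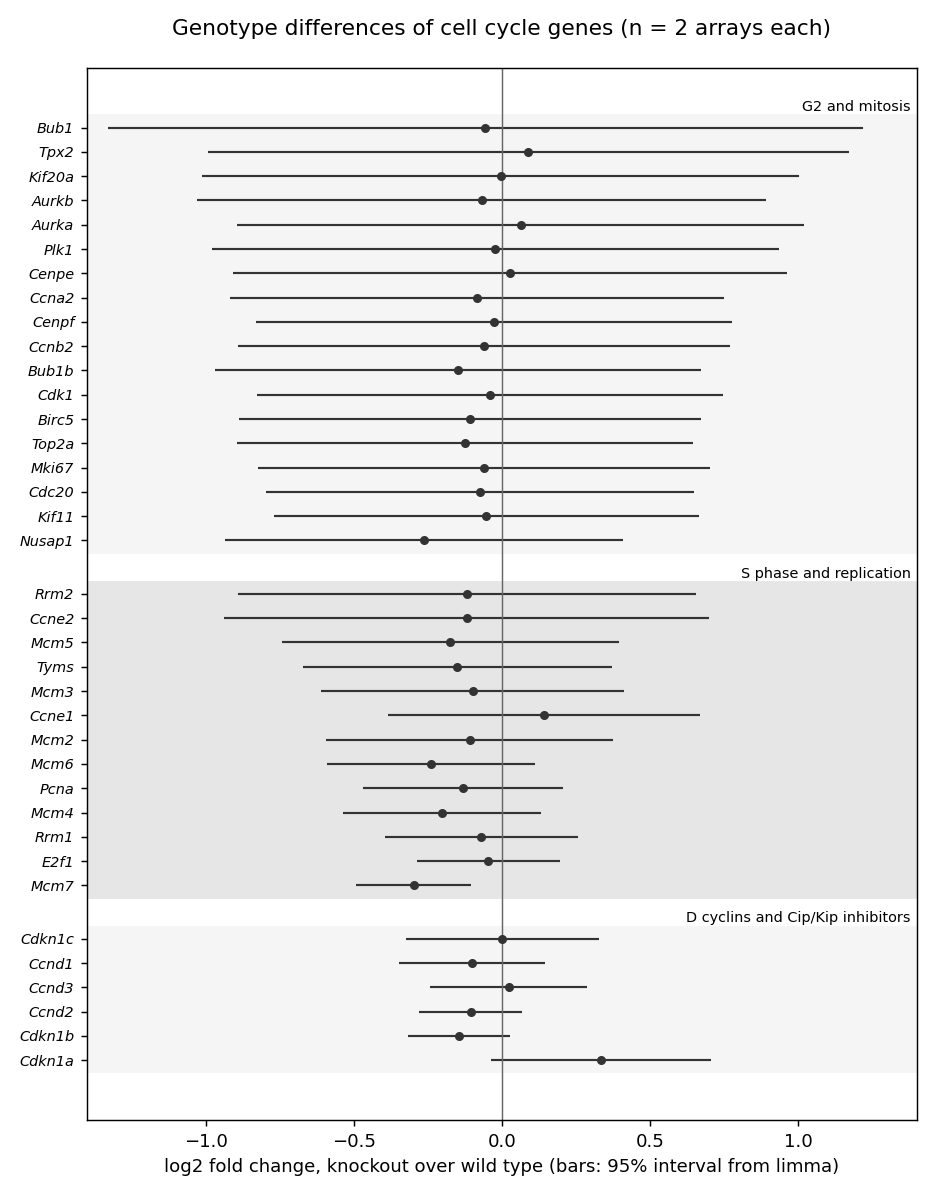
Each point is the log2 fold change of 1 cell cycle gene, knockout over wild type with 2 arrays each, and the bar is its 95% interval from limma. All mitotic intervals cross 0 and are wider than those of the D cyclins and inhibitors, and among the replication genes Mcm7 alone has an interval on 1 side of 0.

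All genes were then ranked by the difference between the wild types. All 18 mitotic members were among the 100 genes with the largest excess of wild type 1 over wild type 2, from rank 2 for Bub1 to rank 81 for Nusap1. Of the replication members 2 were in the first 100, Rrm2 at rank 46 and Ccne2 at rank 54, while Mcm7 was at rank 3104. At least 0.5 separated the wild types in this direction in 208 genes. The members and the further cycle genes listed next made up 74 of these, 35.6% of the 208 and 47.7% of the 155 cycle genes measured. In the opposite direction the largest differences belonged to hair follicle genes such as Tchh, trichohyalin, which had 10.74 and 3.49 in the knockouts, against 4.03 and 10.37 in the wild types.

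**Figure D3:**
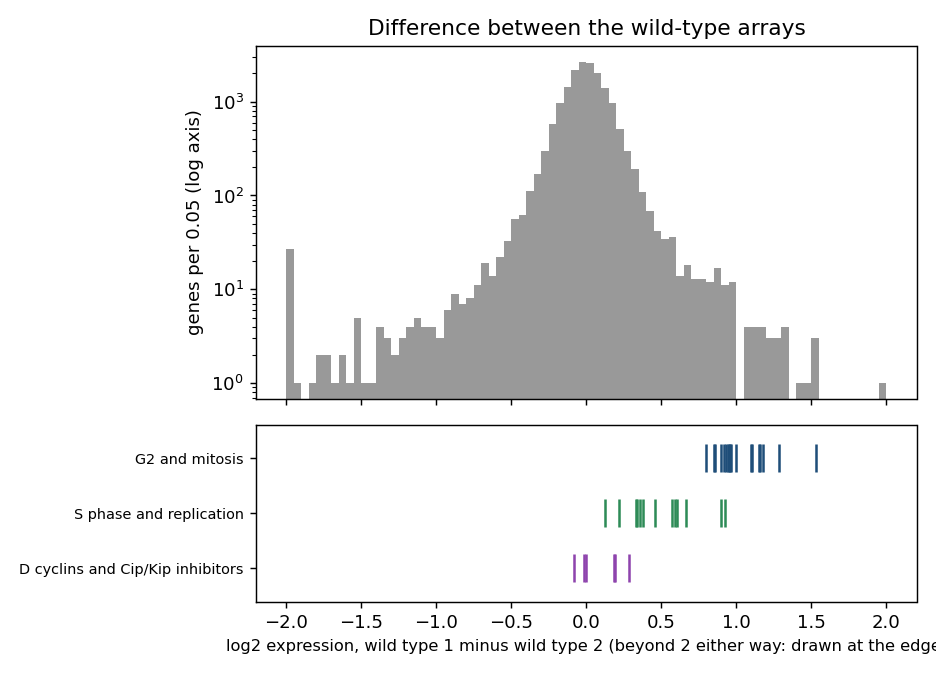
The upper panel counts all genes by the log2 difference of wild type 1 minus wild type 2, on a log axis with values beyond 2 in either direction drawn at the edge, and the lower panel marks each cell cycle gene by role. The mitotic genes occupy 0.79 to 1.53, the replication genes 0.12 to 0.92, and the D cyclins and inhibitors lie between -0.08 and 0.28.

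Several members were measured by more than 1 probe set. For the mitotic genes 13 further probe sets from 10 genes were present, and 11 of them were higher in wild type 1 than in wild type 2, with a median difference of 0.45. Among the 7 with a mean above 5 the median was 0.90 and 5 reached 0.5. A second Cenpe probe set differed by 1.22, and second probe sets of Aurkb and Ccna2 by 1.01 and 0.99. In that brighter group the second probe sets of Kif11 and Top2a did not reach 0.5, with differences of -0.08 and 0.22. At that Top2a probe set both knockouts lay below wild type 2, at 6.36 and 6.32 against 6.46. For the replication genes 9 of 11 further probe sets were higher in wild type 1, with a median difference of 0.12, and the highest was 0.65, for Mcm2. Among the 6 with a mean above 5, all 6 were higher in wild type 1, with a median of 0.32. For the D cyclins and inhibitors 3 of 10 further probe sets were higher in wild type 1, with a median difference of -0.02.

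Further mitotic genes, listed by role, were set beside the members. Of 51 further mitotic genes 38 had wild type 1 highest and wild type 2 lowest, against 7.39% of all genes, and 38 were at least 0.5 higher in wild type 1, against 1.22% of all genes, with a median wild-type difference of 0.74. Prc1, a bundler of midzone microtubules, had log2 values of 7.91 and 8.23 in the knockouts, against 8.73 and 7.41 in the wild types. Ncapg, a condensin subunit, had 5.63 and 5.55 in the knockouts, against 6.29 and 4.97 in the wild types. The kinetochore gene Ska1 had 5.17 and 5.22 in the knockouts, against 6.15 and 4.86 in the wild types, and the spindle gene Ckap2 had 7.37 and 7.58 in the knockouts, against 8.10 and 6.86 in the wild types. These genes were named for the largest range over arrays in the list, a choice that favours wide gaps between arrays. In each of them the knockouts lay between the wild types. By genotype the further mitotic genes had a median log2 fold change of -0.05, and 0 of 51 passed in limma, with 1 at an unadjusted p under 0.05, against 7.01% of all genes. This was Cks1b, a small subunit of cyclin-dependent kinases, at 10.14 and 10.12 in the knockouts, against 10.43 and 10.27 in the wild types (log2 fold change -0.22, SE 0.080, limma adjusted p = 0.712). Kif18a, Cit and Cenpk, next by p in that list, had log2 fold changes of -0.20, 0.13 and -0.18.

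Further replication genes lay below 0 by genotype in 33 of 35 cases, with a median log2 fold change of -0.15. In limma 0 of 35 passed over all genes, and 6 of 35 had an unadjusted p under 0.05, all lower in knockouts, against 3.38% of all genes. In 11 of 35 both knockouts lay below both wild types, against 19.4% of all genes, and in 0 both lay above. Cdt1, which loads the Mcm helicase at origins, had log2 values of 8.75 and 8.73 in the knockouts, against 9.32 and 8.98 in the wild types (log2 fold change -0.41, SE 0.125, limma adjusted p = 0.693). Orc6, a subunit of the origin recognition complex, had 7.73 and 7.92 in the knockouts, against 8.22 and 8.12 in the wild types (log2 fold change -0.35, SE 0.091, limma adjusted p = 0.693). Mcm10, an initiation factor, had 6.06 and 5.90 in the knockouts, against 6.38 and 6.29 in the wild types. These origin genes and the clamp loader gene Rfc3, with a log2 fold change of -0.27, were named for the smallest p in the list. That choice favours separated groups, and in each of them both knockouts sat below both wild types. In the genes named below for their range, the knockouts lay between the wild types instead. A second Mcm10 probe set had 0.03. Without wild type 1 the median of the 35 genes was 0.003, and without wild type 2 it was -0.32. The widest ranges over arrays in this list belonged to Tk1, the thymidine salvage kinase, with 7.83 and 7.94 in the knockouts, against 8.66 and 7.77 in the wild types, and then to Dbf4, Cdc6 and Asf1b, with ranges of 0.79, 0.78 and 0.75.

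Of 32 further regulators, 7 had wild type 1 highest and wild type 2 lowest, against 7.39% of all genes. The median wild-type difference was 0.06 and the median log2 fold change was -0.02. In this list 0 passed in limma and 1 had an unadjusted p under 0.05, against 7.01% of all genes. It was the G1 kinase gene Cdk6 (log2 fold change -0.23, SE 0.084, limma adjusted p = 0.712). Cdk2, the kinase partner of cyclin E, had 8.56 and 8.49 in the knockouts, against 8.74 and 8.66 in the wild types. The repressors E2f7 and E2f8, themselves E2F targets, had wild-type differences of 0.89 and 0.65, and Fbxo5, an inhibitor of the anaphase-promoting complex, had 0.74. Mycn, a growth-promoting transcription factor, had 5.82 and 4.58 in the knockouts, against 4.85 and 4.96 in the wild types, so knockout 1 stood alone.

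Markers of the cell types in the dissected tissue were set beside these values. Of 110 markers in 12 lists, 5 had wild type 1 highest and wild type 2 lowest, which is 4.55%, against 7.39% of all genes. Luminal epithelial markers had median deviations of -0.02 in knockout 1 and -0.14 in knockout 2, against 0.13 in wild type 1 and 0.07 in wild type 2. In 9 of 13 of them, and in 5 of 10 basal markers, both knockouts lay below both wild types, against 19.4% of all genes. None of these markers passed in limma, and 4 of 13 luminal and 3 of 10 basal markers had an unadjusted p under 0.05, against 7.01% of all genes. None of the luminal or basal markers had its lowest value in wild type 2. Hair follicle markers had median deviations of 1.69 in knockout 1 and -1.67 in knockout 2, against -1.78 in wild type 1 and 1.57 in wild type 2, so hair was low in the array with the highest mitotic values and high in the one with the lowest. The knockouts differed widely in hair genes too. Their mitotic medians were -0.09 in knockout 1, the one with high hair values, and 0.01 in knockout 2. Of the 18 mitotic genes 13 were lower in knockout 1 than in knockout 2. Thermogenic adipocyte genes had medians of 0.72 in knockout 1 and 0.12 in knockout 2, against -0.38 in wild type 1 and -0.41 in wild type 2. For endothelium the medians were -0.03 in knockout 1 and 0.15 in knockout 2, against -0.07 in wild type 1 and -0.11 in wild type 2. Macrophage medians were -0.12 in knockout 1 and 0.03 in knockout 2, against 0.08 in wild type 1 and 0.02 in wild type 2. Skeletal muscle stood out in knockout 2, at 0.40, against -0.17 in knockout 1, -0.06 in wild type 1 and -0.13 in wild type 2. The epidermis, white adipocyte, fibroblast, lymphocyte and erythroid lists had medians between -0.07 and 0.10 in every array. Among erythroid genes Slc4a1, the red cell anion exchanger, had 6.86 and 7.36 in the knockouts, against 7.32 and 6.33 in the wild types. The erythroid list as a whole did not follow it: its median of wild type 1 minus wild type 2 was -0.08, with 3 of 5 below 0, and Alas2, the first enzyme of erythroid haem synthesis, had 8.20 and 7.99 in the knockouts, against 8.02 and 8.21 in the wild types. Whether any of these cells accounts for the mitotic values was not tested.

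**Figure D4:**
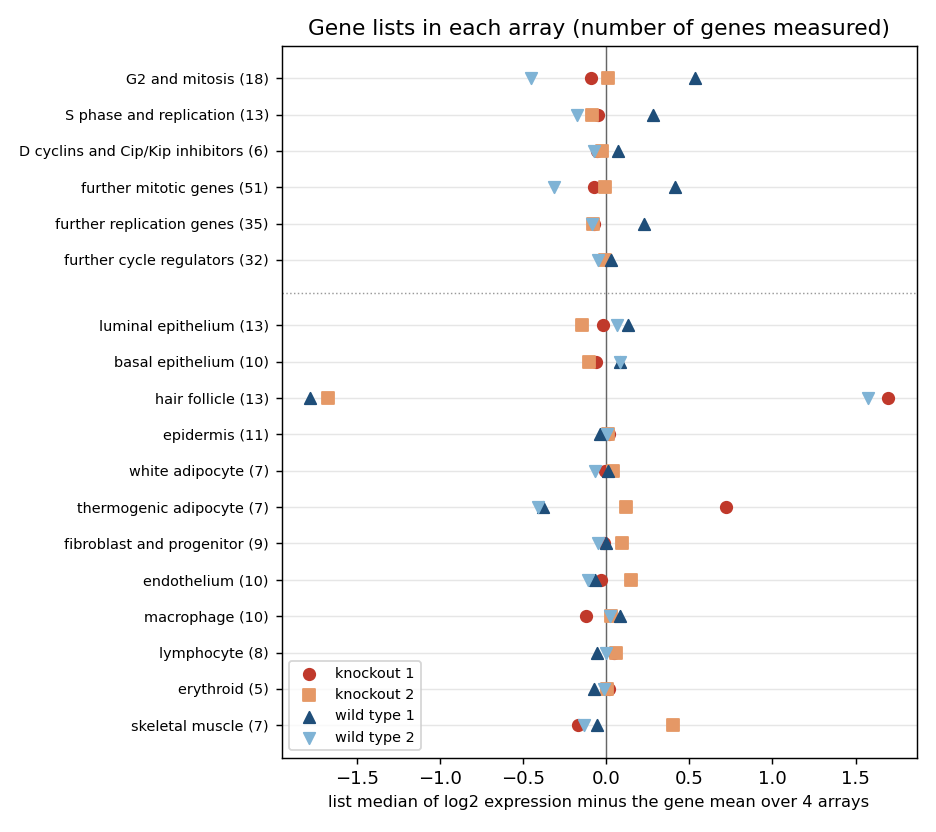
Each row is a gene list with the number of genes measured, and each symbol is the list median in 1 array of log2 expression minus the gene's mean over the 4 arrays. Mitotic lists separate wild type 1 from wild type 2 with the knockouts between, and hair follicle genes separate knockout 1 and wild type 2 from the other arrays.

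RNA quality was read from control probe sets. The 3′ minus 5′ log2 difference of the Gapdh control probe sets was 0.58 and 0.56 in the knockouts, against 0.60 and 0.53 in the wild types, and that of Actb was 0.76 and 0.75 in the knockouts, against 0.80 and 0.80 in the wild types. All 3 probe sets of 18S ribosomal RNA were highest in wild type 2. The 5′ one had 6.97 and 6.69 in the knockouts, against 6.87 and 7.42 in the wild types. The middle one had 7.57 and 7.44 in the knockouts, against 7.55 and 7.96 in the wild types, and the 3′ one had 8.11 and 8.10 in the knockouts, against 8.11 and 8.56 in the wild types. Its part in the low mitotic values of wild type 2 was not tested.

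Promoters of members that shared an array order are shown because G2 and mitotic genes are known to carry 2 short elements, a CCAAT box bound by NF-Y and a cell cycle homology region (CHR), and replication genes an E2F site. The sequences are RefSeq promoter windows of assembly GRCm38.p6, from 250 bases before to 50 bases after the annotated start, and 28 of the 37 members matched by gene ID. Where a gene had several windows the one listed first was used. Motifs were searched on both strands. The CCAAT box was searched by those letters. The CHR was searched as TTTGAA and as TTTAAA, and no other form of it was searched. As an E2F core, TTTGGCG counted, and so did the variant TTTCGCG, the variant with TTTCCCG and the variant with TTTGCCG. The form TTTAAA reads alike on both strands, and E2F cores on opposite strands can overlap. In the sequences below, written 5′ to 3′ on the gene's strand, capitals mark every match.

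The mitotic members with a window and the largest ranges over the arrays were Bub1 (chr2:127831810-127832109, minus strand), Aurka (chr2:172370521-172370820, minus strand) and Plk1 (chr7:122159185-122159484, plus strand).
Bub1: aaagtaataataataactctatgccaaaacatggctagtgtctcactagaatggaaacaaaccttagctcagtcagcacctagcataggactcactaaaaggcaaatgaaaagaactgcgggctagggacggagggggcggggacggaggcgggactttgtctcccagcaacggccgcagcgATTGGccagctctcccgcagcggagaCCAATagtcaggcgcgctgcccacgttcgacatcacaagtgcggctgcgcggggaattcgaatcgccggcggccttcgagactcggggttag
Aurka: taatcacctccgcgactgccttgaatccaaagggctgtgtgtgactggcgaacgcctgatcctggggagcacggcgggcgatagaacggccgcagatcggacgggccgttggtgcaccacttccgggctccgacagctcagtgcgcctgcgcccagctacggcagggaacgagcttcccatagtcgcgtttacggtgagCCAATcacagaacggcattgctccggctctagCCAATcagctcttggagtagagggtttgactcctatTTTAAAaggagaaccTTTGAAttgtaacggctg
Plk1: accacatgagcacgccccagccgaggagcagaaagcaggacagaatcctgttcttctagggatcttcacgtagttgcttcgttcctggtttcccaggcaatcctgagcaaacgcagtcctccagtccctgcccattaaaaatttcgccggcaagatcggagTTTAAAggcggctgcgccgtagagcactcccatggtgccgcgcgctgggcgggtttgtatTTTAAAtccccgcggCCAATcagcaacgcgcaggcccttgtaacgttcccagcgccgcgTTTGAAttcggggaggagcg
Bub1 held 2 CCAAT boxes on opposite strands and no match to the CHR forms searched. Aurka held 2 CCAAT boxes and 2 CHR matches, and Plk1 1 CCAAT box and 3 CHR matches. None of these windows held an E2F core.

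The replication members chosen in the same way were Rrm2 (chr12:24708004-24708303, plus strand), Mcm5 (chr8:75109259-75109558, plus strand) and Tyms (chr5:30073576-30073875, minus strand).
Rrm2: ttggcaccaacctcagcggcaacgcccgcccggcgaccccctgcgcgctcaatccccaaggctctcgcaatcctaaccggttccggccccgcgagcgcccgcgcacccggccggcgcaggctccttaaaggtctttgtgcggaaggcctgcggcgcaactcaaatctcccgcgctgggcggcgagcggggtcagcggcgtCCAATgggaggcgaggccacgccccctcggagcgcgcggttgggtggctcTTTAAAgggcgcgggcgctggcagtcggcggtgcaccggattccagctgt
Mcm5: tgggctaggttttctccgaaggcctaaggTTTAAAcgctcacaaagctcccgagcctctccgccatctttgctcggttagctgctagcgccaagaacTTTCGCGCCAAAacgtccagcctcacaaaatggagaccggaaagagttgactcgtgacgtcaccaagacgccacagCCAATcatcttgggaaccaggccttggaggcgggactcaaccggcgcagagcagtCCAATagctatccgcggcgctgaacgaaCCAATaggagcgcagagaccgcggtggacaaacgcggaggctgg
Tyms: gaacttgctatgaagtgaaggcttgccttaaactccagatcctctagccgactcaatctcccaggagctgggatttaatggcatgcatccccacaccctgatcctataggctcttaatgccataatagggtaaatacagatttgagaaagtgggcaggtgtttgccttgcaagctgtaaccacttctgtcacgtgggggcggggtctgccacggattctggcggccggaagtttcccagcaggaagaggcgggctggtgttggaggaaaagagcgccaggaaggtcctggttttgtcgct
Mcm5 held 2 overlapping E2F cores, 3 CCAAT boxes and 1 CHR match, Rrm2 1 CCAAT box and 1 CHR match, and Tyms no match to any of these letters.

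Over the promoters matched, 12 of 14 mitotic members held a CHR match, which is 85.7%, against 21.6% of the 13514 promoters of all genes on the array and 27.8% of all 27025 windows. A CCAAT box was found in 12 of 14, or 85.7%, against 38.4% on the array and 37.9% of all windows, and 11 of 14 held both elements, against 8.58% on the array. Of 11 replication members 4 held a CHR match and 8 a CCAAT box. An E2F core was found in 4 of 11 replication members, or 36.4%, and in 3 of 14 mitotic members, or 21.4%, against 9.34% on the array and 6.85% of all windows. In the further lists a CHR match was counted too, with 66.7% of 42 further mitotic promoters and 24.1% of 29 further replication promoters holding one, while an E2F core was in 48.3% of those replication promoters and 21.4% of those mitotic promoters. These matches are descriptions of the letters in each window, with no test.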

How the data were processed

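Total RNA of intact inguinal mammary glands was measured on 4 Affymetrix PM arrays, 2 per genotype. The deposited values are log2 expression values made by the authors with RMA in affy, per the submitters' processing notes. No tool version or scan batch was given in the sources used here. Of 45141 probe sets, 28898 had 1 gene symbol in the platform annotation, 551 several and 15588 none listed, and 104 were controls. The brightest probe set per gene gave 17097 genes. Of the gene IDs 99.1% were found in RefSeq.

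Genotypes were compared with limma 3.58.1 in R 4.3.3 (lmFit and eBayes, two-sided, Benjamini-Hochberg over all genes, adjusted p threshold 0.05, 2 residual and 2.96 prior degrees of freedom). Single arrays were compared without a test, using a log2 step of 0.5. The small number of arrays limits the precision, and the median half-width of the 95% intervals was 0.21. Each limma p-value sets the genotype difference against the spread between arrays, moderated over all genes. The labels do not state whether that spread is between single mice or pools. Data for this comparison were simulated 10 times over 17097 genes, with independent noise and gene variances drawn from the limma prior. In each run 200 genes were raised in the knockouts. Of genes changed by 0.5, 8.4% were recovered, and of those changed by 1, 84.6%. The SE of the log2 fold change was 0.26 to 0.49 in the mitotic members, against a median of 0.080 over all genes. Recovery at the SE of the mitotic members was not tested, so the simulated shares cannot be read as theirs.

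Members and lists were chosen with earlier results of these data known. All members are named; each further list names up to 4 genes of smallest p and up to 4 of largest range. Alternatives covered normalization, dim genes, probe sets, variance model, replicate block and each array left out.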

Additional observations from a re-analysis of the deposited data

How the results depend on the processing

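No cell cycle member passed the adjusted threshold under any of the alternatives run. With 1 probe set or mean per gene, members at an unadjusted p under 0.05 numbered 1 or 2 except without wild type 1 (18) and without wild type 2 (27). Over all genes 1 passed; the count was 0 with probe sets averaged per gene, 2 with robust variances, 2 with every probe set tested, and 0 to 1 with an array left out. With the replicate number as a block it was 0, with 1185 genes at an unadjusted p under 0.05. The correlation of same-numbered deviations over all genes was -0.48. With 2 arrays per genotype it cannot show whether same-numbered arrays were paired. The crossed pairing, added after seeing the data, gave 0, with 1064 genes at an unadjusted p under 0.05. The cause of these changes was not tested.

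With each array left out in turn, the median log2 fold change ran from -0.37 to 0.12 for replication genes, from -0.56 to 0.43 for mitotic genes and from -0.12 to 0.055 for D cyclins and inhibitors. The median difference of wild type 1 minus wild type 2, under alternatives chosen after seeing the data, ran from 0.92 to 0.96 for mitotic genes, 0.35 to 0.45 for replication genes and 0.02 to 0.09 for D cyclins and inhibitors. Without wild type 1, 24 of 37 members changed sign.

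Single log2 fold changes that changed sign with an array left out had these ranges. The range was -0.23 to 0.10 for Rrm1, -0.58 to 0.34 for Rrm2, -0.34 to 0.12 for Mcm2 and -0.39 to 0.20 for Mcm3. It was -0.50 to 0.16 for Mcm5, -0.31 to 0.047 for Pcna, -0.45 to 0.15 for Tyms and -0.14 to 0.43 for Ccne1. Next came -0.57 to 0.33 for Ccne2, -0.15 to 0.062 for E2f1, -0.51 to 0.39 for Mki67 and -0.58 to 0.33 for Top2a. Ranges were -0.54 to 0.42 for Ccnb2, -0.58 to 0.41 for Ccna2, -0.51 to 0.43 for Cdk1 and -0.50 to 0.35 for Cdc20. Values ran from -0.82 to 0.71 for Bub1, -0.62 to 0.33 for Bub1b, -0.51 to 0.64 for Aurka and -0.65 to 0.51 for Aurkb. The span was -0.57 to 0.53 for Plk1, -0.57 to 0.36 for Birc5, -0.48 to 0.37 for Kif11 and -0.59 to 0.59 for Kif20a. Further ranges were -0.55 to 0.73 for Tpx2, -0.66 to 0.13 for Nusap1, -0.52 to 0.58 for Cenpe and -0.51 to 0.46 for Cenpf. Last came -0.069 to 0.12 for Ccnd3, -0.14 to 0.14 for Cdkn1c and -0.38 to 0.021 for Cenpk. Mcm4, Mcm6, Mcm7, Ccnd1, Ccnd2, Cdkn1a and Cdkn1b kept their sign without each array.

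With the second brightest probe set the log2 fold change turned to 0.035 for Ccna2, 0.082 for Kif11, -0.091 for Tpx2, 0.016 for Nusap1, -0.047 for Cenpe, -0.0098 for Ccnd3 and 0.14 for Cdkn1b. Among further genes it turned to 0.029 for Mcm10, 0.025 for Kif18a and 0.13 for Tfdp2. With probe sets averaged per gene it was 0.015 for Kif11, -0.00072 for Tpx2 and -0.0096 for Cenpe, and with each array centred on its median -0.0046 for Cdkn1c. No paired call was lost in the members, since none passed.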

Other observations

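Genes outside the cell cycle lists that differed most between wild type 1 and wild type 2 with both knockouts between were named after their values were seen. Cep55, which acts in the final cut between daughter cells, had log2 values of 6.99 and 7.02 in the knockouts, against 7.68 and 6.16 in the wild types. Mxd3, a MAX-binding repressor of the MAD family, had 6.74 and 6.84 in the knockouts, against 7.57 and 6.08 in the wild types. Pimreg had 6.39 and 6.82 in the knockouts, against 7.19 and 5.78 in the wild types. The knockouts were the middle arrays in these genes because they were chosen that way. Depdc1a had 6.13 and 6.16 in the knockouts, against 6.82 and 5.51 in the wild types. Esco2, which acetylates cohesin in S phase, had 5.69 and 5.67 in the knockouts, against 6.45 and 5.25 in the wild types. Kif20b, a kinesin of cytokinesis, had 6.41 and 6.32 in the knockouts, against 7.08 and 5.88 in the wild types. Cep55, Esco2 and Kif20b are known to act in the division cycle, although the lists did not hold them. Further down, Fcer1a, the alpha chain of the IgE receptor of mast cells, had 4.15 and 4.36 in the knockouts, against 4.95 and 3.99 in the wild types.

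Of the 208 genes at least 0.5 higher in wild type 1 than in wild type 2, 153 had both knockouts between. The cell cycle lists held 70 of these, which is 45.8% of the 153 and 45.2% of the 155 cycle genes measured.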
